A study of Mus musculus with 15 samples.

Results

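Lysosomal hydrolases and membrane proteins were followed as a list of 39 genes in the retinal pigment epithelium (RPE) of mice, out of 46078 genes counted. The members are defined by their symbols, and the list was drawn up with earlier results of these data known. They comprise 13 proteases, 9 glycosidases, 4 sulfatases, 7 lipid hydrolases, activators and related proteins, and 6 proteins of the lysosomal membrane. All 15 libraries came from female mice at postnatal day 14, with RNA taken from 2 hours after light onset, and their strain label names a mix of c57Bl/6J with B6;129-Mertktm1Grl/J. The 4 groups are Mertk WT (4 libraries), Mertk KO (4), Bai1 Tg neg (4) and Bai1 Tg pos (3), and both Bai1 groups are wild type for Mertk. The receptor tyrosine kinase Mertk is needed for uptake of shed photoreceptor outer segments by the RPE. Bai1 (gene symbol Adgrb1) recognises phosphatidylserine on dying cells, and the species and promoter of its transgene are not stated in the labels. Nor do the labels say whether the libraries of a group stem from separate animals, so a p-value here reflects spread between libraries that may be technical in part.

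The RPE is among the most phagocytic tissues of the body, and outer segments that it engulfs each day are broken down in its lysosomes. Soluble hydrolases reach the lysosome through mannose phosphate receptors or sortilin and work at the acid pH set by the vacuolar ATPase. Many lysosomal genes carry an E-box of the letters CACGTG near their start, which is bound by transcription factors of the MITF and TFEB family, and inherited loss of single hydrolases causes storage diseases, several of which affect the eye.

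The E-box was looked for in RefSeq promoters of the GRCm38.p6 build, each covering 250 bases before and 50 after a gene's start, and 35 of the 39 members had an entry. A gene can have several such promoters, 32851 in all, and was counted if any of them held the motif. CACGTG, which reads the same on both strands, was in the promoter of 14 of these 35 members (40%), against 8.09% of all 27025 genes with an entry. These genes were taken whether or not they are expressed in the RPE, and were not matched to the members. The longer TCACGTG, searched on both strands and holding the shorter motif, was in 12 members (34.3%) and in 4.29% of all genes. The full palindrome TCACGTGA was in 5 members (14.3%) and in 1.12% of all genes. A match is a description of these letters and not a binding site. The stretches below come from some of the 14 members that carry the motif, which most of the list does not. The motif is in capitals, 5′ to 3′ on the strand of the gene. Ctsd leads as the most abundant member, Gaa, Naglu, Glb1 and Gla are glycosidases, and Lamp1, Mcoln1 and Cln3 are membrane proteins. The stretches of Ctsd, Mcoln1, Cln3 and Gla hold the palindrome, as does the promoter of Ctsa, which is not shown. Distances are counted from the RefSeq start. The stretches of Ctsd, Cln3 and Mcoln1 lie inside the gene as the deposited table bounds it, and that of Naglu overlaps its edge, so these distances depend on the start chosen.
Ctsd (chr7:142387908-142387937, minus strand, 98 bases before the start): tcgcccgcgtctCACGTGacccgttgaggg
Gaa (chr11:119267811-119267840, plus strand, 140 bases before the start): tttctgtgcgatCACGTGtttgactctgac
Naglu (chr11:101070009-101070038, plus strand, 73 bases before the start): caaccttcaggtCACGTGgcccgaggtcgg
Glb1 (chr9:114401018-114401047, plus strand, 48 bases before the start): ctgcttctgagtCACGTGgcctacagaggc
Lamp1 (chr8:13159104-13159133, plus strand, 45 bases before the start): tggtccagcgccCACGTGatgccgactggc
Mcoln1 (chr8:3500462-3500491, plus strand, 45 bases before the start): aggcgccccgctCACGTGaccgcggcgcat
Cln3 (chr7:126583340-126583369, minus strand, 121 bases before the start): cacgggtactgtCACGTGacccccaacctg
Gla (chrX:134601182-134601211, minus strand, 194 bases before the start): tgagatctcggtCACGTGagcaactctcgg
The 14 members with the motif had a median level of 69.7 CPM per kilobase (CPM being counts scaled to library size, here divided by exon length) and the 21 without it a median of 47.9. Both sets span most of the range of the list, from 6.39 to 3310 with the motif and from 0.161 to 2500 without it.

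Totals ran from 9591129 to 20024507 counted fragments per library, so that 3 counts, the floor for a gene not detected, equal 0.15 to 0.313 CPM. Floors cover counting error only. RPE markers were present in every library, with a summed level of 51900 to 60700 CPM over 10 genes. Rpe65, which makes the visual chromophore, ranged from 4170 to 6580 CPM. Best1, also among the 10, was low throughout, at 0 to 1.81 CPM, and none of the 10 was at 0 in every library. Mertk stood at 234 to 258 CPM in Mertk WT and at 155 to 194 CPM in Mertk KO, lower by edgeR (adjusted p = 0.0461, log2 fold change -0.48), and counts per gene do not show which part of the transcript the allele removes. In Bai1 Tg pos Adgrb1 ranged from 167 to 170 CPM, and 3 Bai1 Tg neg libraries had 0 to 0.143 CPM. The library labelled Bai1 Tg neg 4 held 143 CPM, which goes against its label, so calls, list summaries and the main differences that rest on Bai1 Tg neg are given also without it. Rod photoreceptor transcripts, markers of the adjoining retina, summed over 13 genes to 920 to 3720 CPM in Mertk WT, 1000 to 1650 in Mertk KO, 208 to 485 in Bai1 Tg neg and 269 to 808 in Bai1 Tg pos. Mertk WT 2 and Mertk WT 3 had the highest rod levels, at 3720 and 2850 CPM, and their part in the results below was not tested except by leaving them out. In tissue RNA, fewer cells of a type and less RNA per cell cannot be told apart.

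Lysosomal transcripts took a steady share of the RNA. The 39 members held 2.46% ± 0.0715 of all counts in Mertk WT (SD, n = 4), 2.46% ± 0.0247 in Mertk KO (n = 4), 2.34% ± 0.129 in Bai1 Tg neg (n = 4) and 2.33% ± 0.0678 in Bai1 Tg pos (n = 3). The ranges were 2.35 to 2.51%, 2.44 to 2.50%, 2.19 to 2.47% and 2.28 to 2.40%, so that each Mertk group overlapped its own comparison group, as did each Bai1 group. Without Bai1 Tg neg 4 the share in Bai1 Tg neg was 2.31% ± 0.145 (n = 3). Ctsd and Psap together supplied 63.3% of these counts, 34.8% from Ctsd alone and 28.5% from Psap. Ctsd alone took between 0.696 and 0.974% of a library.

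**Figure D1:**
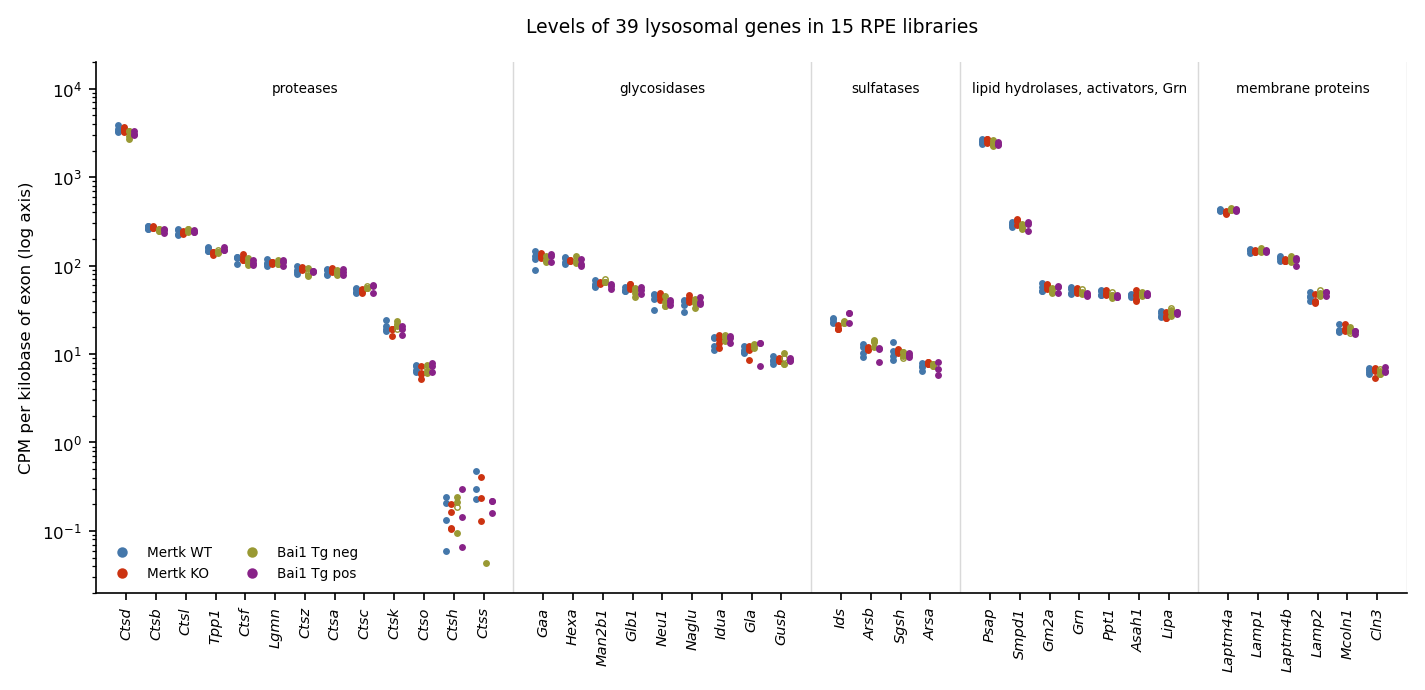
Each point is the level of a gene in 1 library in CPM per kilobase of exon on a log axis, grouped by role and coloured by genotype group, with an open circle for the library labelled Bai1 Tg neg 4 and with values of 0 (all of Ctss) not drawn. Ctsd at a mean of 3310 and Psap at 2500 stand above the rest, and Ctsh and Ctss lie at 0.164 and 0.161.

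Among the proteases, levels are means ± SD over all 15 libraries in CPM per kilobase, the scale used wherever genes are compared with each other. Ctsd, the aspartic protease cathepsin D (chromosome 7, 142371148 to 142388038), was highest at 3310 ± 289. Ctsb, a cysteine protease (chromosome 14, 63122462 to 63145919), followed at 261 ± 13.3, and Ctsl, a cysteine endopeptidase, at 244 ± 12.6. Tpp1, a serine protease that removes tripeptides and is lost in a childhood neuronal ceroid lipofuscinosis, stood at 147 ± 8.39. Ctsf (116), Lgmn, the asparaginyl endopeptidase that processes other cathepsins (108), Ctsz, a carboxypeptidase (87.5), and Ctsa, the carboxypeptidase that protects the galactosidase and sialidase (85.5), formed a middle group. Ctsc, a dipeptidyl peptidase, stood at 54, and Ctsk, best known from bone resorption, and Ctso at 19.9 and 6.72. Ctsh, an aminopeptidase, and Ctss, a protease of antigen-presenting cells, were close to the floor, with 3 to 25 and 0 to 12 counts per library. Ctss was too low to be tested and Ctsh was tested with wide error, so the comparisons below cover 38 of the 39 members.

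Glycosidases were of middle abundance among the members, and by CPM per kilobase stood at percentiles 64.6 to 97.7 of all genes tested. Gaa, which breaks down glycogen (chromosome 11, 119267887 to 119285454), and Hexa, the alpha subunit of beta-hexosaminidase (chromosome 9, 59539667 to 59565105), led at 123 ± 14.2 and 114 ± 7.74 CPM per kilobase. Their ranges over the libraries, 88.2 to 147 and 100 to 128, overlapped. Both come from the same libraries, and their difference was not tested. Man2b1, the alpha-mannosidase (62.8), Glb1, the beta-galactosidase (53.9), Neu1, the sialidase (41.2), and Naglu, an enzyme of heparan sulfate breakdown (39.1), came next. Idua, the iduronidase (14.5), Gla, the alpha-galactosidase lost in Fabry disease (11.4), and Gusb, the beta-glucuronidase (8.62), were lowest. All 4 sulfatases were low among the members, though at percentiles 61.1 to 84.9 of all genes tested. Ids, which removes sulfate from iduronate in heparan and dermatan sulfate (chromosome X, 70343069 to 70365084), stood at 23.2 ± 3.2, Arsb, which acts on dermatan and chondroitin sulfate (chromosome 13, 93771679 to 93943016), at 11.7 ± 1.69, Sgsh, a heparan sulfatase, at 10.4, and Arsa, which acts on sulfatides, at 7.43.

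Psap, the precursor of the saposins that present sphingolipids to their hydrolases (chromosome 10, 60277627 to 60302597), stood at 2500 ± 149 CPM per kilobase, the second of all members. Smpd1, the acid sphingomyelinase (chromosome 7, 105554360 to 105558388), followed at 293 ± 24.7. Gm2a, a ganglioside activator (55.7), Grn, progranulin (50.7), Ppt1, which removes palmitate from proteins (47.9), Asah1, the acid ceramidase (46.7), and Lipa, the acid lipase (28.8), were lower. Of the membrane proteins, Laptm4a (chromosome 12, 8921664 to 8938742), a protein of late endosomes and lysosomes, was the most abundant at 422 ± 17.5 and thereby the third of all members, and Lamp1, an abundant glycoprotein of the lysosomal membrane (chromosome 8, 13159135 to 13175338), followed at 148 ± 5.43. Laptm4b stood at 117, Lamp2 at 45.7, the calcium channel Mcoln1 at 18.9 and Cln3, the Batten disease protein, at 6.39.

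Some of these levels rest on counts that could be shared. The authors counted without strand and, per the file headers, without assigning fragments that overlap more than 1 gene, and 12 members share exons with another gene. The largest overlaps were those of Arsb with Gm26527 over 48.83% of its exon length, Sgsh with Card14 over 21.64%, Arsa with C230037L18Rik over 18.75% and Ctsb with Fdft1 over 16.18%, each on the opposite strand. Gm26527 had 0 counts in every library, but all of its 1948 bases lie within exons of Arsb. Its fragments could therefore not be assigned, and the 0 does not show whether it is expressed. Fragments over that part of Arsb were not assigned either, while its level was divided by its full exon length, so that level is uncertain. Of the members, 13 had a near-identical stretch in a transcript of another gene. Laptm4b is 96.6% identical to Gm6705 over 685 bases, Ctsd is identical to the transcript Gm49369 over 671 bases, and Ctsl to Gm47123 over 977 bases. None of these 3 partners is among the genes counted, and whether they are separate loci was not checked, so these 3 levels are uncertain. Matches to counted genes include Hexa with Tmem202 (100% over 255 bases) and Lamp1 with Grtp1 (100% over 177 bases).

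Libraries of a group lay close together. Over the 37 members of at least 25 CPM, the median coefficient of variation within a group was 7.77% in Mertk WT and 5.24% in Mertk KO. It was 6.26% in Bai1 Tg neg and 7.4% in Bai1 Tg pos. Over all 6239 genes of at least 25 CPM the values were 9.66, 8.23, 6.63 and 8.94%. These genes were not matched to the members in level, so whether the difference is a trait of the list was not tested. Without Bai1 Tg neg 4 the values in Bai1 Tg neg were 6.37% for the members and 5.99% for all these genes, so there the order turned. Mertk WT 2 was the lowest library of its group for 16 of these 37 members, among them 6 of the 9 glycosidases. Gaa stood at 422 CPM in Mertk WT 2 and at 705, 569 and 607 CPM in the other Mertk WT libraries. Neu1 stood at 117 CPM there, against 176, 155 and 177, and Naglu at 79.3, against 109, 94.2 and 105. This library was also the highest of the 4 for 10 members, Ctsd, Tpp1, Lamp2 and Ids among them, so it was not low throughout. Bai1 Tg neg 1 was the lowest of its group for 22 members, and Bai1 Tg neg 3 the highest for 19, ties included. Such ranks were not counted over all genes, so these counts cannot be credited to the list or to the glycosidases.

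The first comparison asks whether lysosomal transcripts differ in the RPE when Mertk is disrupted. None of the 38 tested members passed the test between Mertk KO and Mertk WT (edgeR quasi-likelihood F test, Benjamini-Hochberg adjusted p under 0.05 over 13447 genes). The background was 30 genes called, 8 higher and 22 lower in Mertk KO, or 0.223%, so few that a count of 0 among 38 says little by itself. DESeq2 and limma-voom also called 0 members, and at an unadjusted p under 0.05 there were 2 members and 750 genes in all. The log2 fold changes of the members ran from -0.29 to 0.22 with a median of 0.01, 20 above 0 and 18 below it, against a median of 0.00 and quartiles of -0.11 and 0.12 over all genes tested. The 95% interval of 37 of the 38 members stayed within a 1.5-fold change in either direction, Ctsh being the exception.

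Ids gave the smallest p of the Mertk comparison. It stood at 109, 97.0, 97.1 and 97.8 CPM in Mertk KO and at 114, 132, 117 and 127 CPM in Mertk WT. Every Mertk KO library lay below every Mertk WT library, and Mertk KO 1 came closest to the controls. The means were 100 ± 6.08 and 123 ± 8.42 CPM (SD, n = 4 each), with a log2 fold change of -0.29 (SE 0.079, 95% interval -0.46 to -0.12) and an adjusted p of 0.370 by edgeR. Over 17 alternatives the adjusted p of Ids ran from 0.155 to 0.981 and the log2 fold change from -0.33 to -0.25.

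Tpp1 stood at 503, 482, 461 and 492 CPM in Mertk KO and at 517, 562, 514 and 547 CPM in Mertk WT. These groups did not overlap either, though the gap between them was narrow, and the log2 fold change was -0.15 (SE 0.068, adjusted p = 0.891 by edgeR). Ids and Tpp1 were the members without overlap between the groups, 2 of 38, and 3.54% of all genes tested had none. Naglu, at 102, 114, 125 and 111 CPM in Mertk KO and at 109, 79.3, 94.2 and 105 CPM in Mertk WT, overlapped. Its log2 fold change was 0.22 (SE 0.104, adjusted p = 0.893 by edgeR), and it was 0.08 without Mertk WT 2 and Mertk WT 3, the libraries of high rod transcripts. Glb1 stood at 138, 147, 147 and 131 CPM in Mertk KO against 136, 123, 125 and 128 CPM in Mertk WT, again with overlap, with log2 fold change 0.13 (SE 0.073, adjusted p = 0.905 by edgeR).

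**Figure D2:**
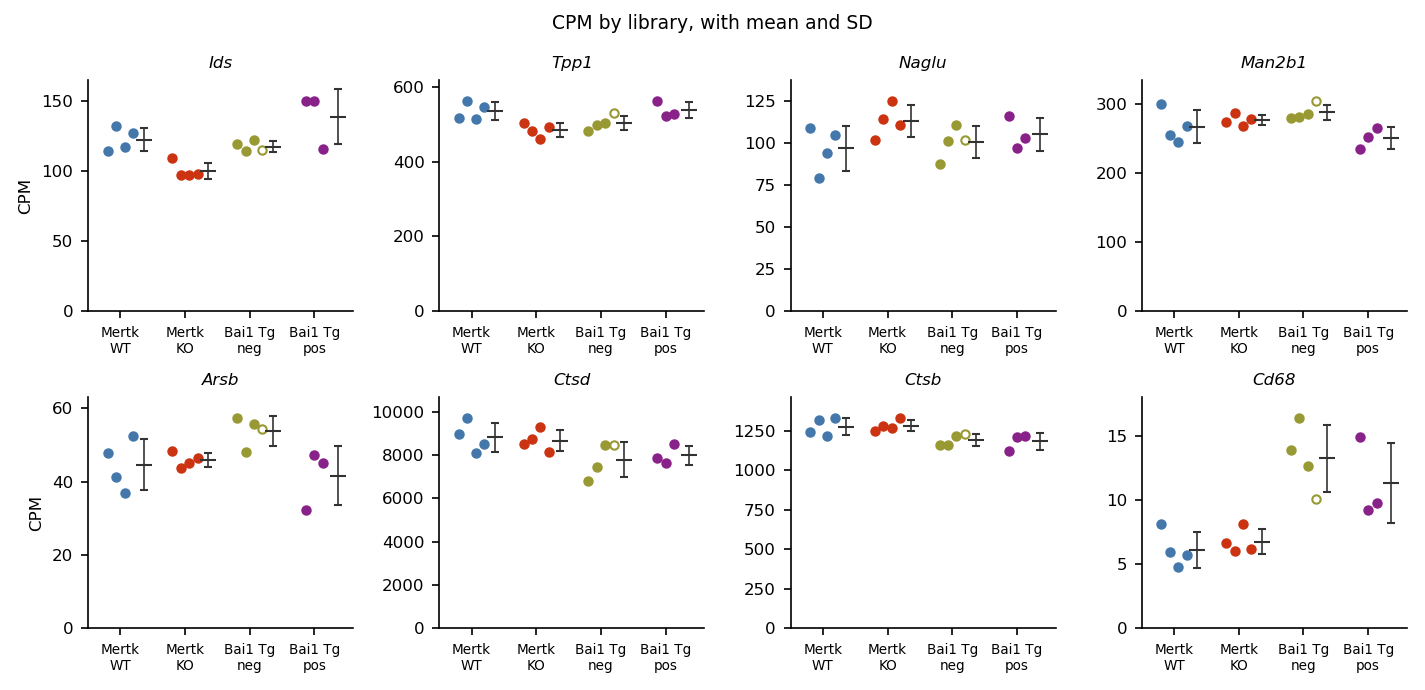
Each point is the CPM of 1 library for 7 members and for Cd68, with the mean and SD of each group beside the points and an open circle for the library labelled Bai1 Tg neg 4. Ids lies at 97.0 to 109 in Mertk KO and at 114 to 132 in Mertk WT, and Cd68 at 10.1 to 16.4 in Bai1 Tg neg and at 4.8 to 8.11 in Mertk WT.

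By role, 0 members of any group passed in the Mertk comparison. The median log2 fold change was -0.02 over 12 proteases, 0.07 over 9 glycosidases, 0.04 over 4 sulfatases, 0.01 over 7 lipid hydrolases and activators, and -0.06 over 6 membrane proteins. Of the glycosidases 7 lay above 0, but Gaa and Neu1, at 0.11 each, stood at -0.07 and -0.06 without Mertk WT 2 and Mertk WT 3. The most abundant members lay close to 0. Ctsd stood at 8510, 8740, 9300 and 8140 CPM in Mertk KO and at 8950, 9700, 8110 and 8490 CPM in Mertk WT, with a log2 fold change of -0.03 (95% interval -0.19 to 0.13). The ranges overlapped, and Mertk WT 2 was the highest. Psap stood at 6610, 7320, 7420 and 7330 CPM in Mertk KO and at 7030, 6570, 6870 and 7350 CPM in Mertk WT, with a log2 fold change of 0.04 (-0.10 to 0.18). Ctsb gave 0.00 (-0.14 to 0.14), Smpd1 0.12 (-0.04 to 0.28), Hexa -0.02 (-0.18 to 0.15), Laptm4a -0.10 (-0.24 to 0.04) and Lamp1 -0.03 (-0.18 to 0.11). Ctsa and Ctsz lie on chromosome 2, as Mertk does, and had log2 fold changes of 0.08 and 0.06, neither past the test.

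**Figure D3:**
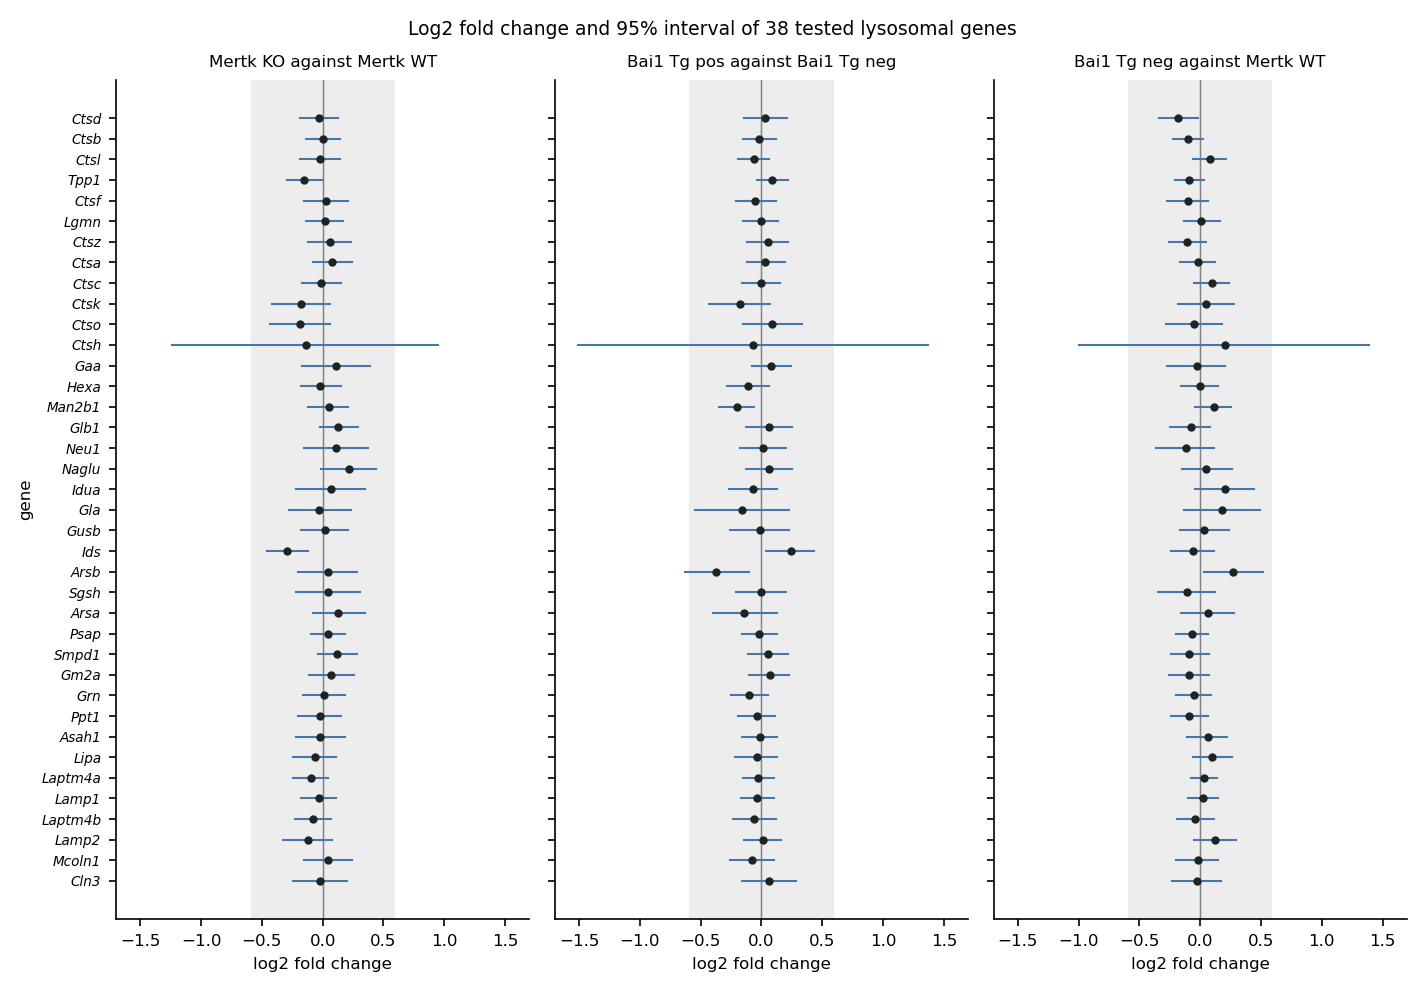
Points are log2 fold changes of the 38 tested members and lines their 95% intervals in the 3 comparisons, with the grey band marking a 1.5-fold change in either direction. Apart from Ctsh in every panel and Arsb in the Bai1 Tg pos panel, the intervals lie inside the band.

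The second comparison asks the same of the Bai1 transgene. None of the 38 members passed between Bai1 Tg pos and Bai1 Tg neg, where 2 of 13855 genes were called, both lower, or 0.0144%. DESeq2 and limma-voom called 0 members too, and 3 members and 718 genes had an unadjusted p under 0.05. The members' log2 fold changes ran from -0.37 to 0.24 with a median of -0.01, 14 above 0 and 24 below it, and over all genes tested the median was 0.00 with quartiles of -0.12 and 0.12. The 95% interval stayed within 1.5-fold for 36 members, Arsb and Ctsh being the exceptions. Without the library labelled Bai1 Tg neg 4, 0 members and 5 genes were called, and no member's log2 fold change moved by more than 0.05. Role medians were -0.00 for proteases, -0.01 for glycosidases, -0.07 for sulfatases, -0.02 for lipid hydrolases and activators, and -0.03 for membrane proteins, and without Bai1 Tg neg 4 they ran from -0.10 to 0.01.

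Man2b1 (chromosome 8, 85083269 to 85098739) gave the smallest p of the Bai1 comparison. It stood at 234, 252 and 265 CPM in Bai1 Tg pos and at 280, 281, 285 and 304 CPM in Bai1 Tg neg, the last value from the library labelled Bai1 Tg neg 4. No Bai1 Tg pos library reached the level of a Bai1 Tg neg library. The log2 fold change was -0.20 (SE 0.067, adjusted p = 0.948 by edgeR), and -0.17 without Bai1 Tg neg 4 (adjusted p = 0.988). Arsb stood at 32.4, 47.3 and 45.1 CPM in Bai1 Tg pos and at 57.3, 48.0, 55.8 and 54.4 CPM in Bai1 Tg neg, also without overlap. Its log2 fold change was -0.37 (SE 0.123, 95% interval -0.63 to -0.10, adjusted p = 0.948 by edgeR), and -0.36 without Bai1 Tg neg 4. Over 13 alternatives the adjusted p of Arsb ran from 0.0832 to 1 and its log2 fold change from -0.47 to -0.22. The low value of Bai1 Tg pos 1 stood apart from the other transgenic libraries.

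Ids stood at 150, 150 and 116 CPM in Bai1 Tg pos and at 119, 114, 122 and 115 CPM in Bai1 Tg neg. The first 2 transgenic libraries lay above all controls and Bai1 Tg pos 3 inside their range. The log2 fold change was 0.24 (SE 0.090, adjusted p = 0.948 by edgeR), 0.23 without Bai1 Tg neg 4, and 0.35 without Bai1 Tg pos 3, where the adjusted p was 0.0568. The summed level of 7 smooth muscle and pericyte markers, 2 of them under 1 CPM in every library, was 304, 434 and 242 CPM in Bai1 Tg pos and 189 to 230 CPM in Bai1 Tg neg. Rod transcripts summed to 453, 808 and 269 CPM in Bai1 Tg pos. Both sums were lowest in Bai1 Tg pos 3 among the transgenic libraries, as Ids was, and their part in the result was not tested. Whether the difference of Ids in this comparison differs from that in the Mertk comparison was not tested. Ctsk, at 25.1, 29.1 and 31.4 CPM in Bai1 Tg pos and at 31.2, 33.3, 35.9 and 29.3 CPM in Bai1 Tg neg, overlapped, and the log2 fold change was -0.18 (SE 0.117, adjusted p = 0.958 by edgeR), or -0.23 without Bai1 Tg neg 4. Of all genes tested, 6.29% had groups without overlap, against Man2b1 and Arsb among the 38 members. Ctss, which was not tested, had 3, 5 and 4 counts in Bai1 Tg pos and 0, 1, 0 and 0 in Bai1 Tg neg, values at or near the floor of 3 counts.

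The abundant members again lay near 0. Ctsd stood at 7860, 7630 and 8490 CPM in Bai1 Tg pos and at 6800, 7430, 8460 and 8470 CPM in Bai1 Tg neg, where the first 2 libraries were lower than the others. Its log2 fold change was 0.03 (95% interval -0.14 to 0.21), and 0.08 without Bai1 Tg neg 4. Psap gave -0.02 (-0.16 to 0.13), Ctsb -0.02 (-0.15 to 0.12), Gaa 0.08 (-0.08 to 0.24), Hexa -0.11 (-0.28 to 0.06), Smpd1 0.05 (-0.11 to 0.22), Laptm4a -0.03 (-0.15 to 0.10) and Lamp1 -0.04 (-0.17 to 0.10).

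Bai1 Tg neg and Mertk WT, the control groups of the 2 sets, were set against each other to see how far lysosomal transcripts vary between sets. The descriptions give each library a tag that starts with 12 in the Bai1 set and with 17 or 21 in the Mertk set, and its meaning is not stated, so set and group cannot be told apart. This comparison shares Mertk WT with the first and Bai1 Tg neg with the second. None of the 38 members passed, by edgeR, DESeq2 or limma-voom, while 55 of 14520 genes were called (0.379%), 10 higher (0.0689%) and 45 lower (0.31%) in Bai1 Tg neg. The called genes include the rod genes Pde6b, Nr2e3 and Rom1, all lower. At an unadjusted p under 0.05 there were 2 members and 1009 genes. Without the library labelled Bai1 Tg neg 4, 15 genes and 0 members were called, and again no member moved by more than 0.05. The members' median log2 fold change was -0.02, within -0.18 to 0.27, with 17 above 0 and 21 below it, against an all-gene median of 0.00 and quartiles of -0.10 and 0.13. No tested member had groups without overlap, against 5.72% of genes, and the intervals of 37 members, all but Ctsh, lay within 1.5-fold.

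Between these controls Arsb gave the smallest p, at 57.3, 48.0, 55.8 and 54.4 CPM in Bai1 Tg neg and 47.8, 41.3, 36.9 and 52.5 CPM in Mertk WT. The ranges overlapped through Bai1 Tg neg 2 and Mertk WT 4. The log2 fold change was 0.27 (SE 0.117, adjusted p = 0.619 by edgeR), 0.26 without Bai1 Tg neg 4 (adjusted p = 0.811), and 0.11 without Mertk WT 2 and Mertk WT 3. Arsb was highest in Bai1 Tg neg, at 53.9 ± 4.09 CPM, which enters both comparisons in which it had a small p, while the other groups had means of 44.6, 45.9 and 41.6 CPM. Ctsd was at a mean of 7790 ± 819 CPM in Bai1 Tg neg and 8810 ± 685 in Mertk WT, with overlap, the log2 fold change being -0.18 (SE 0.076, adjusted p = 0.625 by edgeR), and -0.23 without Bai1 Tg neg 4 (adjusted p = 0.485). Ctsb followed at 1190 ± 38.2 and 1280 ± 55.2 CPM (log2 fold change -0.10, SE 0.057, adjusted p = 0.821 by edgeR). Idua, at 65.1 ± 4.65 and 56.9 ± 9.37 CPM, gave a log2 difference of 0.20 (SE 0.116, adjusted p = 0.829 by edgeR), which was 0.01 without Mertk WT 2 and Mertk WT 3. Without Bai1 Tg neg 4, Ctsb gave -0.12 and Idua 0.16 (adjusted p = 0.847 and 0.979 by edgeR).

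Other genes of the lysosome were read from 6 further lists. Of 27 other hydrolases, 23 other membrane proteins, 19 subunits of the vacuolar ATPase, 17 genes of sorting to the lysosome, 17 of its transcriptional and nutrient control and 9 cysteine protease inhibitors, 0 passed in the Mertk or the Bai1 comparison by edgeR, and no list held more than 2 genes with an unadjusted p under 0.05 in either. The lists' median log2 fold changes ran from -0.01 to 0.11 for Mertk and from -0.15 to 0.00 for Bai1, with 0.11 from the 19 tested membrane proteins and -0.15 from the 3 tested inhibitors. Between the control groups they ran from -0.03 to 0.21, the latter again from the 3 inhibitors, and 1 gene passed. Without Bai1 Tg neg 4 the medians ran from -0.14 to 0.02 for Bai1 and from -0.05 to 0.19 between the controls, with 0 and 1 genes past the test. The most abundant of each list in CPM per kilobase were Npc2, which binds cholesterol in the lysosome, Cd63, a tetraspanin, and Atp6v1e1 of the proton pump. In the last 3 lists they were the sorting receptor Sort1, the Ragulator subunit Lamtor1 and the inhibitor Cst3. In the order named, the log2 fold changes of these 6 genes in Mertk KO were -0.01, 0.03, -0.08, 0.09, -0.04 and 0.00, none past the test. Smpdl3a, a phosphodiesterase related to the sphingomyelinase, came closest. It stood at 151, 144, 142 and 144 CPM in Mertk KO and at 166, 204, 189 and 181 CPM in Mertk WT, without overlap, and its log2 fold change was -0.35 (SE 0.078, adjusted p = 0.158 by edgeR, 0.0135 by DESeq2, and 0.663 by edgeR without Mertk WT 2 and Mertk WT 3).

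In the other lists the genes of smallest p in the Mertk comparison were the lysosomal channel Tpcn2 (log2 fold change 0.46, adjusted p = 0.737 by edgeR), the pump subunit Atp6v1g1 (0.21, 0.822), Cln6 (0.18, 0.905), the Ragulator subunit Lamtor3 (0.31, 0.468) and the inhibitor Cst6 (0.66, 0.822). In the Bai1 comparison they were Hgsnat (0.25), Slc11a2 (0.12), Atp6v1g1 (-0.10), Gga1 (-0.19), Zkscan3 (-0.15) and Cstb (-0.15), with adjusted p from 0.948 to 0.958 by edgeR.

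**Figure D4:**
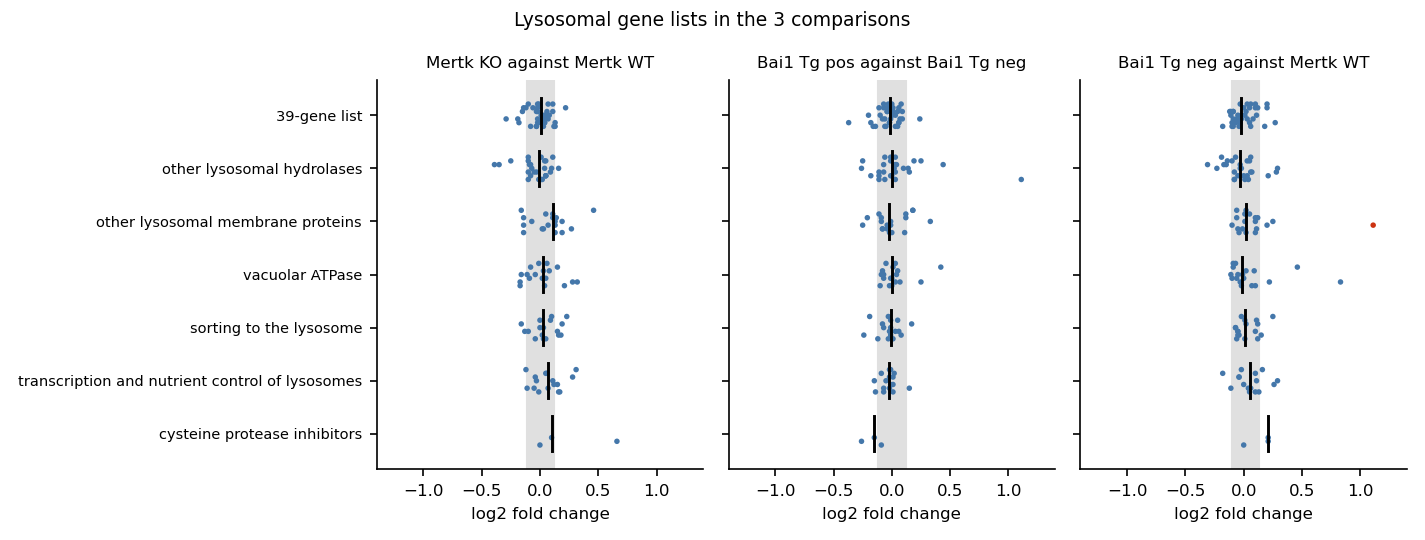
Points are log2 fold changes of the tested genes of the 39-gene list and of 6 further lists, black bars their medians, and the grey band the quartiles of all genes tested. Cd68, drawn in red at 1.11 in the right panel, is the one gene of these lists past the test.

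Cd68, a glycosylated lysosomal membrane protein most abundant in macrophages, was that gene, and rose in Bai1 Tg neg over Mertk WT. It stood at 13.9, 16.4, 12.7 and 10.1 CPM in Bai1 Tg neg and at 8.11, 5.92, 4.8 and 5.74 CPM in Mertk WT. The groups did not overlap, and Mertk KO at 6.03 to 8.16 CPM and Bai1 Tg pos at 9.27 to 14.9 CPM lay near the controls of their own sets. The log2 fold change was 1.11 (SE 0.204, adjusted p = 0.0184 by edgeR), and 1.22 without Bai1 Tg neg 4 (adjusted p = 0.0284). The call was lost without Mertk WT 2 (adjusted p = 0.0569), Mertk WT 3 (0.0882), Bai1 Tg neg 1 (0.0833) or Bai1 Tg neg 2 (0.115), and without Mertk WT 2 and Mertk WT 3 together (0.195), where the log2 fold change was 0.93. Of the 16 macrophage and microglia markers, which include Cd68, 8 were under 1 CPM in every library, and Ptprc and Aif1 were at 0 in all libraries but 1. Their summed level was 621 to 651 CPM in Bai1 Tg neg, 638 to 708 in Mertk WT, 660 to 744 in Mertk KO and 630 to 688 in Bai1 Tg pos, nearly all of it Csf1r at 604 to 735 CPM. Of these markers 3 were tested between the controls. Cd68 lay above 0 and the other 2 below it, the lower at a log2 fold change of -1.33, neither past the test. The other genes of smallest p between the controls were Galc (0.28), Atp6v1b1 (0.83), Vps29 (0.25), Fnip1 (0.29) and Cstb (0.21), with adjusted p from 0.213 to 0.789 by edgeR.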

How the data were processed

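RNA sequencing of 15 RPE libraries was analysed from 1 table of raw fragment counts per gene that the authors deposited. Per the labels' protocols, libraries were made from poly-A RNA. STAR was the aligner and GRCm38 the build, per the submitters' processing notes, and per the file headers counts were made with featureCounts 1.5.0, over exons, requiring both ends to map, without strand. No source used here gives the version of STAR. Identifiers were matched to symbols for 45143 genes (99.91% of counts).

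CPM used TMM factors. Tests were edgeR 4.0.16 quasi-likelihood F tests in R 4.3.3 (filterByExpr, robust dispersions, two-sided, Benjamini-Hochberg over all genes tested, threshold 0.05), checked on simulated data. The Mertk and Bai1 comparisons were fitted on their own libraries and the controls in 1 fit of all 15. SEs and 95% intervals were derived from the fold change and F statistic. Between libraries of a group, chi-square per degree of freedom was at least 5.28, so none was counted as a repeat. Near-identical transcripts were searched with blastn 2.17.0 (at least 95% over 150 bases).

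Members, lists and tests were chosen with earlier results of these data known. Full statistics are given for members past the threshold, the 4 of smallest p per comparison and the 2 most abundant per role. Of other lists, genes past the threshold or the 1 of smallest p, and the most abundant per kilobase, are named. Other members are given by level. Best1, Pde6b, Nr2e3, Rom1, Ptprc, Aif1, Tfeb, Tfe3 and Mitf lie outside this rule and were picked with their values in view. So was leaving out Mertk WT 2 and Mertk WT 3. Alternatives covered DESeq2 1.42.0 with its size factors, limma 3.58.1 voom with quality weights, no low-count filter, a replicate block, all libraries in 1 fit, libraries of 1 tag, and leaving out each library.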

Additional observations from a re-analysis of the deposited data

Results flagged for a closer look

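In each group of 4 libraries, the highest and lowest CPM of each member were compared with the rest of the group, and a library was singled out when its gap to the nearest library exceeded Dixon's 95% critical value for its share of the group's range. This held in 8 of 117 groups tested, where chance gives about 1 in 20. In Mertk KO, Psap stood at 6610 CPM in Mertk KO 1 against 7320 to 7420 in the others, Ids at 109 in the same library against 97.0 to 97.8, Ctsk at 24.1 in Mertk KO 2 against 28.7 to 29.0, and Lgmn at 243 in Mertk KO 3 against 254 to 255. In Mertk WT, Ctsf stood at 208 CPM in Mertk WT 2 against 243 to 248, and Lamp1 at 310 in Mertk WT 4 against 339 to 345. In Bai1 Tg neg, Ctsc stood at 337 CPM in the library labelled Bai1 Tg neg 4 against 320 to 323, and Ctss at 0.0591 CPM, a single count, in Bai1 Tg neg 2 against 0 in the others.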

How the results depend on the processing

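The count of members past the threshold was 0 in each comparison and under every alternative run, and no called value changed sign. The lowest adjusted p of any member was 0.155 for Mertk (Ids, DESeq2), 0.0568 for Bai1 (Ids, without Bai1 Tg pos 3) and 0.298 for the controls (Neu1, without Mertk WT 2 and Mertk WT 3). Counts over all genes moved more. For Mertk, with 30 genes called, they were 75 by DESeq2, 69 without a low-count filter, 14 with libraries of tag 17 alone and 16 to 31 with 1 library left out (16 without Mertk KO 4). For Bai1, with 2 called, they were 26 by DESeq2, 85 without a filter, 0 by limma-voom and with all 15 libraries in 1 fit, and 0 to 54 with 1 library left out (54 without Bai1 Tg pos 3). For the controls, with 55 called, they were 179 by DESeq2, 93 by limma-voom, 0 without Mertk WT 2 and Mertk WT 3, and 2 to 96 with 1 library left out (2 without Bai1 Tg neg 1 or Bai1 Tg neg 2, 6 without Mertk WT 3, 12 without Mertk WT 2, 15 without Bai1 Tg neg 4, 96 without Mertk WT 1). The cause was not tested.

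Correlations of the libraries' deviations from their group means did not settle whether equal replicate numbers pair the libraries. For equal numbers they were -0.152, -0.032, 0.164 and 0.273 for Mertk. They were 0.006 to 0.009 for Bai1 and -0.043 to 0.079 for the controls. For unequal numbers in the Mertk set they ran from -0.241 to 0.281. The value of 0.273 came from Mertk WT 4 and Mertk KO 4, the only libraries of tag 21. With the replicate block, 0 members and 24, 4 and 53 genes were called. Among the members, low counts limited Ctss and Ctsh.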

Other observations

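Of the transcription factors that bind the E-box, Mitf stood at 120 to 184 CPM, Tfe3 at 37.5 to 48.5 and Tfeb at 16.4 to 52.6 over the 15 libraries. None passed the test in a comparison (edgeR, adjusted p from 0.451 to 0.998). Tfeb was at 16.4 CPM in Mertk WT 2 and at 52.6, 39.2 and 34.7 CPM in the other Mertk WT libraries. That library also had, at 3720 CPM, the highest rod transcripts of all 15. It was the lowest of its group for 16 of the 37 members of at least 25 CPM, Gaa, Neu1 and Naglu among them. For 10 it was the highest, Ctsd, Ctsl and Lamp1 among them. Such ranks were not counted over all genes, so they may not be particular to the members. CACGTG was in the promoters of Gaa, Naglu, Ctsd, Ctsl and Lamp1 but not of Neu1. How Tfeb, these members and the rod transcripts relate was not tested.

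Outside the 39 members, CACGTG was in the RefSeq promoter of 6 of 12 genes of sorting to the lysosome (50%), 4 of 14 of the vacuolar ATPase (28.6%), 4 of 15 genes of transcriptional and nutrient control (26.7%), 4 of 20 other membrane proteins (20%), 1 of 17 other hydrolases (5.88%) and 0 of 7 cysteine protease inhibitors (0%), against 8.09% of all genes.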
